A study of Mus musculus with 13 samples.

Results

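The untreated Mtr knockout was compared with the wild type given vehicle in hippocampus, through the H3K4me3 signal at promoters. The columns titled KO-1 and KO-2 (n = 2) were set against those titled WT-VEH1 to WT-VEH4 (n = 4), which are 6 of the 13 libraries. Of 14006 distinct regions, the 13495 on autosomes were described, and the other 511 were left out because both knockout columns carry the letter F and all 4 vehicle columns the letter M.

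The mice were C57BL/6. The knockouts carried floxed Mtr exons 4 and 5 and a Cre recombinase driven by the Thy-1.2 promoter, so recombination is limited to cells in which that transgene is active. Vehicle (DMSO-PEG) was gavaged 3 times per week between days 15 and 36, which made 9 administrations. The knockouts of this comparison are labelled as not treated, so gavage, sex and genotype cannot be told apart. A further 4 knockouts and 3 wild types received SRT2104, a SIRT1 agonist, at 50 mg/kg on the same schedule. They give a second genotype contrast with no library in common with the first. They also enter the main fit, where all groups share an estimate of spread, and the mean signal by which regions were classed. The labels do not say that libraries come from separate mice, and p-values therefore measure the spread between libraries, which may be technical.

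Methionine synthase, the product of Mtr, remethylates homocysteine to methionine with a cobalamin cofactor, and methionine is the precursor of S-adenosylmethionine, the methyl donor of histone methyltransferases. Trimethylation of lysine 4 on histone H3 is laid down by SET1 and MLL family complexes and marks the start sites of active genes, where it is widest at genes that define a cell's identity. In whole hippocampus the mark is summed over neurons, glia and vessels, so fewer cells of a type and less signal per cell cannot be told apart.

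The values are the authors' scaled read counts per region, called signal here. Reads within regions ranged from 6972624 in vehicle library 2 to 8742392 in vehicle library 3, with 8631974 and 8461679 in the 2 knockouts. Differences are knockout minus wild type on the log2(signal + 1) scale. Vehicle library 3 stood apart from the other 3, and results that rest on it are given with and without it. No other tissue was compared, so the hippocampal label cannot be tested here. Prox1, a marker of dentate granule neurons, is described beside it. Its region had a signal of 1058 and 744 in the knockouts and of 1201, 1070, 869 and 1217 in vehicle libraries 1 to 4. Csf1r and C1qa, which define microglia, stayed between 13.4 and 26.9 in all 6. They are weak members of the microglia list. Summed over its 10 regions, the signal was 1961 and 1777 in the knockouts and 1745 to 1941 in the vehicle libraries.

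Across the autosomes, 1 of 13495 regions passed an adjusted p of 0.05 in limma (0.00741%), and it was the Thy1 promoter. At an unadjusted p under 0.05, which is no call, 831 regions were higher in the knockouts (6.16%) and 402 lower (2.98%). With TMM scaling these counts were 573 and 644, and with cyclic loess 659 and 637, so the excess of higher regions depended on the scaling. In 1191 regions both knockouts lay above all 4 vehicle libraries (8.83%), and in 583 both lay below (4.32%). Those are the shares against which the groups of genes below are read.

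Thy1 encodes a surface glycoprotein of neurons. Its region (mm9, chromosome 9, 43851054 to 43853496) had a signal of 1260 and 1082 in the knockouts and of 588, 607, 766 and 636 in vehicle libraries 1 to 4. The groups did not overlap, and vehicle library 3 was the highest of the wild types. The log2 difference was 0.85 ± 0.11 (SE, n = 2 against 4; limma adjusted p = 0.0446). SRT2104 knockouts had 1284, 1310, 1263 and 1042, SRT2104 wild types 778, 674 and 669, and Thy1 was also the 1 region of 13495 called in that contrast (0.00741%), with a log2 difference of 0.79 (limma adjusted p = 0.0257). The untreated call was lost with TMM scaling (limma adjusted p = 0.133), with cyclic loess scaling (0.162) and with sex as a covariate (0.578), and without knockout 1 (0.203), vehicle library 2 (0.175) or vehicle library 4 (0.111), while the log2 difference stayed between 0.69 and 0.96. The SRT2104 call was lost with both scalings (limma adjusted p = 0.151 and 0.178) and without any 1 of 6 of its 7 libraries, the exception being knockout replicate 4, with log2 differences of 0.74 to 0.87 over the alternatives. Endogenous Thy1 promoter sequence and the Thy-1.2 promoter of the Cre transgene cannot be told apart in these counts.

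The Mtr promoter does not check the knockout, because the deleted exons lie downstream of it. Its region (chromosome 13, 12349305 to 12350575) had 510 and 427 in the knockouts and 488, 493, 489 and 486 in the vehicle libraries. The 2 knockouts lay on either side of the wild types (log2 difference -0.07 ± 0.07, SE; limma adjusted p = 0.83).

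Next came the 10 regions per direction with the smallest p among those in which both knockouts lay outside the vehicle range. Of these 20, 18 are described here. Apart from Thy1, all 17 of them missed the adjusted threshold, with limma adjusted p from 0.145 to 0.20. They were picked for not overlapping, so that property is a description.

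On the higher side, Mmp24, a membrane-bound metalloproteinase (chromosome 2, 155600740 to 155602201), had 653 and 576 in the knockouts and 460, 466, 469 and 536 in vehicle libraries 1 to 4 (log2 difference 0.35 ± 0.07). Vehicle library 4 was the highest wild type and stayed below both knockouts.

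Among the other higher regions, Calr, a calcium-binding chaperone of the endoplasmic reticulum (chromosome 8, 87369400 to 87370847), had 882 and 780 in the knockouts and 648 to 700 in the vehicle libraries. Tmem100, a membrane protein of endothelium and sensory neurons, had 238 and 255 against 164 to 173, which put the 4 wild types close together and both knockouts well above them (log2 difference 0.55 ± 0.12). Pdgfrb, the receptor that marks pericytes, had 293 and 302 against 192 to 241, while the list of pericyte and smooth muscle genes described below had a negative median. Sept9, a septin, had 561 and 530 against 400 to 463. The regions of Mest with Mir335, an imprinted gene and the microRNA in its intron, and of Mir124a-1 with Mir3078 had differences of 0.35 and 0.32.

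On the lower side most regions were weak. Wnt10a, a Wnt ligand (chromosome 1, 74838066 to 74838952), had 48.2 and 77.0 in the knockouts and 103, 111, 119 and 102 in the vehicle libraries (log2 difference -0.83 ± 0.17). Ciita, the master regulator of major histocompatibility class II genes, had 8.50 and 23.3 against 29.5, 47.6, 30.5 and 31.7 (-1.21 ± 0.31). Ctsz, a lysosomal cathepsin, had 204 and 195 against 282, 304, 235 and 269 (-0.44 ± 0.10). Knockout 1 held the lowest value for Wnt10a and Ciita, with knockout 2 between it and the wild types. The other 7 were Nlrp5-ps, Adssl1, Mafa, 2210011C24Rik with Mir1199, Vsx1, Igf2bp3 and Lipo1, with differences from -1.22 to -0.36. They include transcription factors of other tissues, Mafa of pancreatic beta cells and Vsx1 of the retina.

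**Figure D1:**
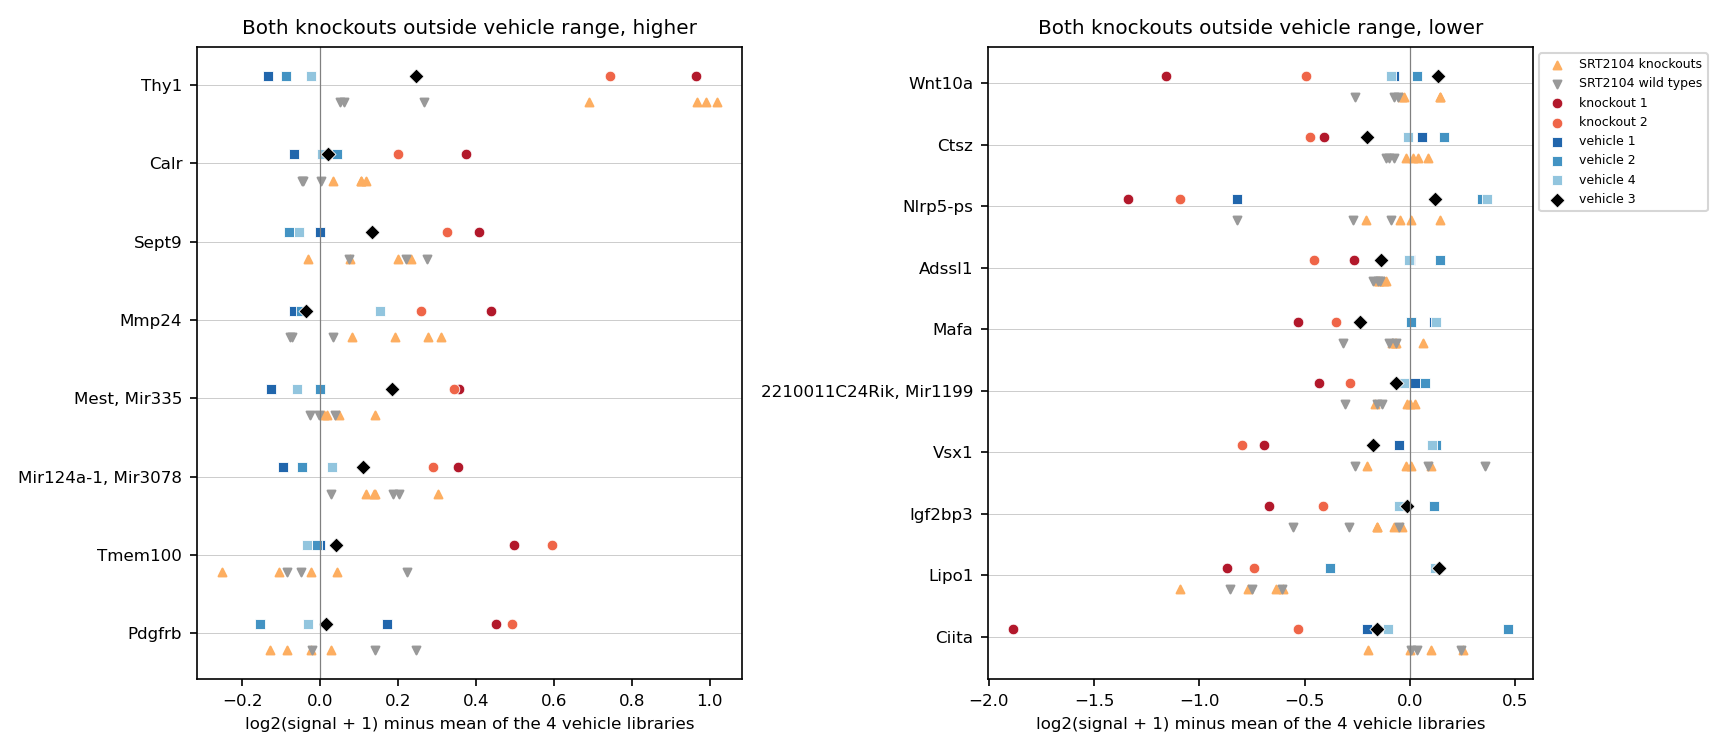
Signal of each named region in all 13 libraries, as log2(signal + 1) minus the mean of the 4 vehicle libraries, for the 8 higher (left) and 10 lower (right) regions described whose 2 knockout values lie outside the vehicle range. For Thy1 the SRT2104 knockouts sit with the untreated knockouts, and for Lipo1 all 7 SRT2104 libraries lie below the 4 vehicle libraries.

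The SRT2104 libraries give the same regions a second genotype contrast. At an unadjusted p under 0.05 that contrast had 689 regions higher (5.11%) and 139 lower (1.03%). Of the 17 named regions other than Thy1, 3 reached an unadjusted p under 0.05 there. Mmp24 had 598, 510, 583 and 551 in SRT2104 knockouts and 458, 457 and 493 in SRT2104 wild types, so these groups did not overlap either (log2 difference 0.25, limma adjusted p = 0.78). Calr had 730, 695, 731 and 737 against 659, 681 and 658, a difference of 0.12. The other, 2210011C24Rik with Mir1199, had the opposite sign, 0.16 against -0.36.

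For the remaining named regions the log2 differences in the SRT2104 contrast ran from -0.17 for Pdgfrb to 0.37 for Nlrp5-ps. Mest with Mir335, Mir124a-1 with Mir3078, Vsx1, Lipo1 and Ciita kept the sign of the untreated difference. The others of these regions had the opposite sign. Tmem100 had 141, 156, 166 and 174 in SRT2104 knockouts and 159, 197 and 163 in SRT2104 wild types. Wnt10a had 106, 120, 120 and 106 against 105, 90.6 and 103. The test of the difference between the 2 genotype contrasts passed the adjusted threshold for none of the 17, Tmem100 and Wnt10a included, with a lowest limma adjusted p of 0.20.

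**Figure D2:**
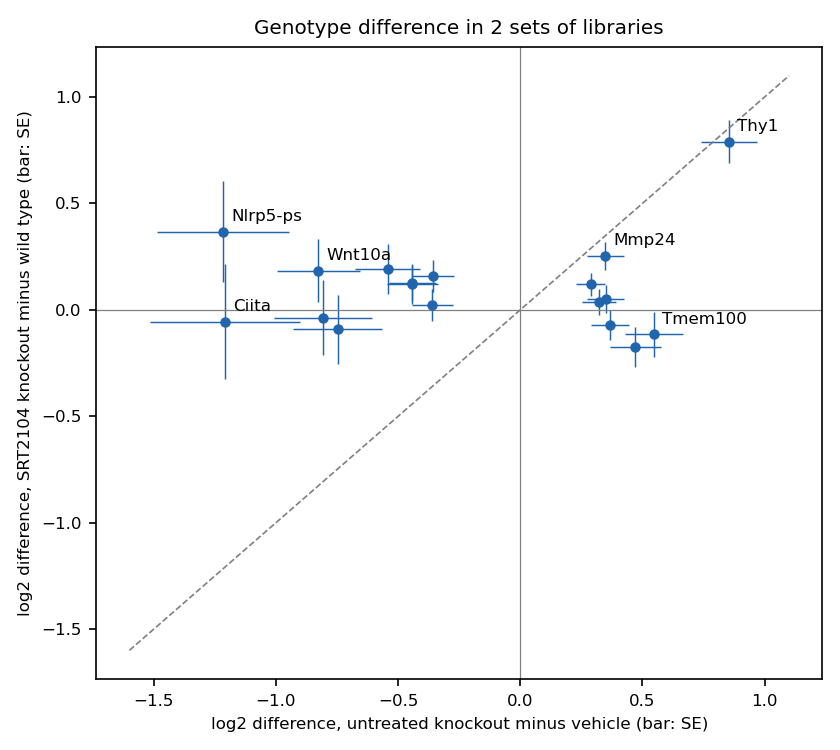
Log2 difference of the 18 named regions between untreated knockout and vehicle (x axis) and between SRT2104 knockout and SRT2104 wild type (y axis), with bars of 1 SE; the dashed line marks equal differences. Thy1 lies near the line at 0.85 and 0.79, Mmp24 lies above 0 on both axes, and Tmem100 at 0.55 and -0.12.

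The sets of regions were compared in the same way. Of the 831 regions higher at an unadjusted p under 0.05, 47 were also higher in the SRT2104 contrast (5.66%, beside 5.11% of all autosomal regions), and 24 were lower (2.89%, beside 1.03%). Of the 402 lower regions, 5 were lower there (1.24%) and 18 higher (4.48%). Read from the other side, 47 are 6.82% of the 689 and 5 are 3.60% of the 139. Both contrasts use the same estimate of spread for each region, so small p-values in them are not independent. An excess of regions with small p-values in both therefore cannot be read as agreement or disagreement, and the same holds for the named regions above. The sign of the SRT2104 difference does not use that estimate. It was positive in 365 of the 831 higher regions (43.9%) and in 270 of the 402 lower regions (67.2%), beside 67.9% of all autosomal regions. By sign, then, neither set kept its lean in the SRT2104 libraries.

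Vehicle library 3 set much of the spread. Without it, 372 autosomal regions were called higher in limma (2.76%) and 180 lower (1.33%), among them all 17 of the regions named above besides Thy1, with limma adjusted p from 0.0012 to 0.041. In 360 of the 372 the library left out lay above the other 3 vehicle libraries, and in 336 its value was nearer to the knockout mean than to their mean. For the 180 lower regions it lay below the other 3 in 169 and nearer to the knockouts in 154. Over all 13495 autosomal regions it lay above the other 3 in 48.3%, below them in 20.6% and nearer to the knockouts in 66.1%. These calls were made with the library left out, so its place in them is partly fixed by that choice.

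The regions with the smallest p in that fit show the pattern. Slc6a7, a proline transporter of excitatory terminals (chromosome 18, 61172144 to 61174067), had 419 and 515 in the knockouts, 211, 239 and 216 in vehicle libraries 1, 2 and 4, and 521 in vehicle library 3. Its log2 difference was 0.76 with all 4 wild types (limma adjusted p = 0.53) and 1.06 without library 3. Gap43, a growth cone protein, had 443 and 513 against 281, 338 and 273, with 491 in library 3. Mpped1 and St8sia5, a ganglioside sialyltransferase, were alike, with 442 and 728 in library 3 beside knockout values of 427 and 537, and of 686 and 751.

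Lower regions of that fit behaved in the mirror image. En2, a homeobox gene of the midbrain and hindbrain, had 371 and 323 in the knockouts, 576, 496 and 471 in vehicle libraries 1, 2 and 4, and 307 in library 3. Pappa, a protease that frees insulin-like growth factors, had 480 and 505 against 689, 695 and 639, with 469 in library 3. In 2900026A02Rik, Emilin2 and Gm16551, too, library 3 had 62.8, 256 and 49.4, at the level of the knockouts. In the SRT2104 contrast the log2 differences of these 9 regions ran from -0.16 to 0.20.

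**Figure D3:**
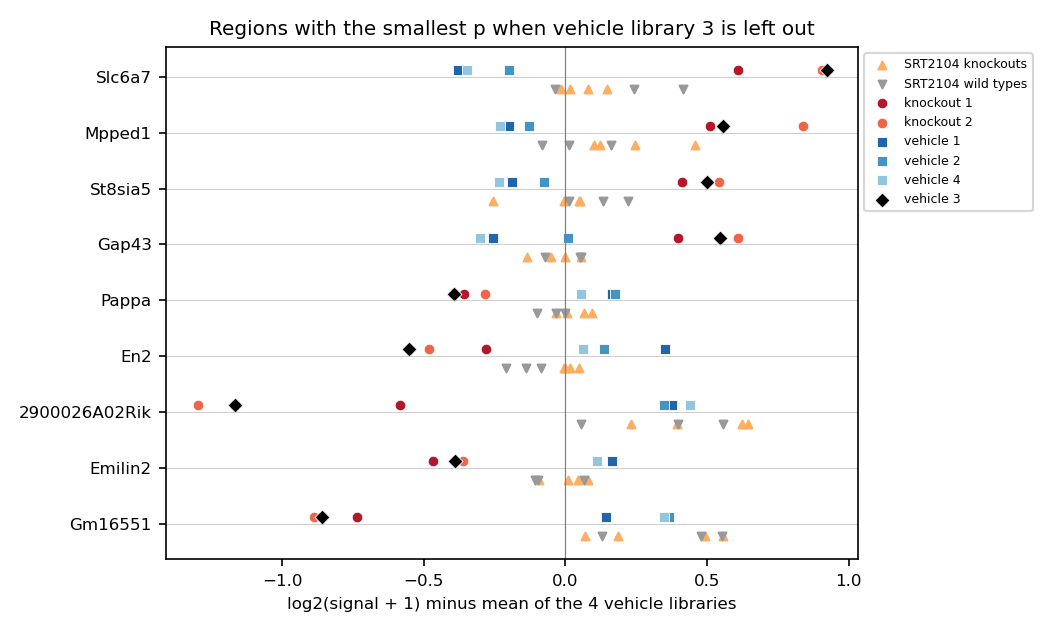
Regions with the smallest p when vehicle library 3 is left out, as log2(signal + 1) minus the mean of the 4 vehicle libraries in each of the 13 libraries. Vehicle library 3 (black diamonds) lies with the 2 knockouts and apart from vehicle libraries 1, 2 and 4 in all 9 regions drawn.

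Promoter classes were described next, with autosomal regions split into 5 equal classes by mean signal over all libraries, and again by width, with class 1 the weakest or narrowest. The median log2 difference went from -0.04 in signal class 1 to 0.05 in signal class 5. The 2 knockouts took opposite courses, from -0.13 to 0.13 in knockout 1 and from 0.06 to -0.03 in knockout 2, each relative to the vehicle mean. The trend of the class median with signal is thus that of knockout 1, and without knockout 1 signal classes 1 and 5 had medians of 0.06 and -0.03. In signal class 1, 230 of 2699 regions were lower at an unadjusted p under 0.05 (8.52%) and 133 higher (4.93%), and in signal class 5, 10 were lower (0.37%) and 157 higher (5.82%). These counts depended on the scaling and on 1 library. With cyclic loess, signal class 5 had 103 higher and 103 lower. Without knockout 1 it had 26 higher and 77 lower, and signal class 1 had 225 higher and 132 lower.

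The same regions were split by width. Across width classes 1 to 5, 80, 103, 124, 211 and 313 regions were higher at an unadjusted p under 0.05, and 190, 102, 51, 26 and 33 were lower. Without knockout 1 the higher regions numbered 126, 88, 77, 99 and 112, with no such gradient, and without knockout 2 they numbered 57, 167, 270, 490 and 698. Wide regions also have more signal, so the classes were crossed, a step chosen after the data had been seen. Within signal class 3, width class 5 had 50 of 206 regions higher (24.3%), beside 21 of 836 in width class 2 (2.51%). In signal class 4 it was 98 of 470 (20.9%) against 4 of 133 in width class 2 (3.01%), but without knockout 2 the shares were 22.6% and 24.8%. Most of the widest regions are in signal class 5, where 137 of 1884 were higher (7.27%), near the 6.16% of all autosomal regions, and 4.72% with cyclic loess. The widest regions of signal class 3 had medians of 0.12 and 0.08 in the 2 knockouts and of 0.08 in vehicle library 3, beside -0.06 in vehicle library 1 and values near 0 in libraries 2 and 4.

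The SRT2104 contrast had no such gradient in signal class 3, where 2.91% of the regions in width class 5 and 6.22% of those in width class 2 were higher. In signal class 3 the share in width class 5 exceeded that in width class 2 under each of the 14 alternatives fitted in limma. With both knockouts kept, the shares were 11.2% to 39.3% against 1.56% to 6.46%. These classes were not counted with edgeR or DESeq2. The 2 were closest without knockout 2, a fit that leaves 1 knockout. There the share in width class 1 exceeded that in width class 5, so it did not climb with width. Without vehicle library 3 the shares in width classes 5 and 2 were 39.3% and 6.46%.

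**Figure D4:**
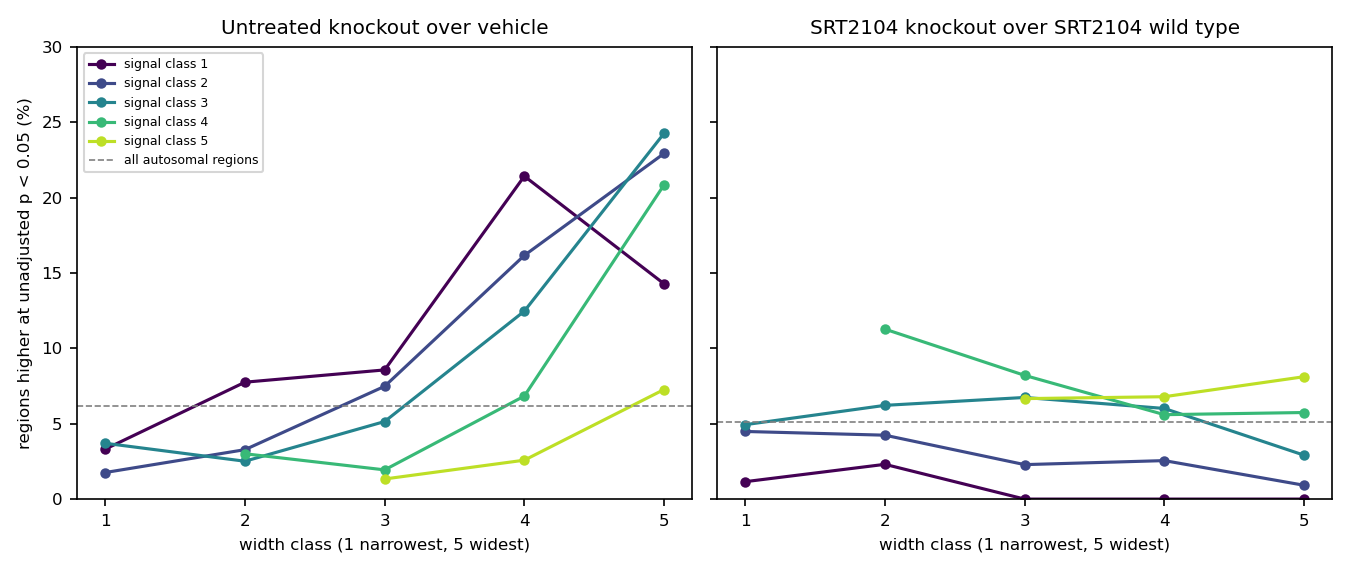
Percentage of autosomal regions higher in the knockouts at an unadjusted p under 0.05, by width class (x axis) within each class of mean signal (lines), for the untreated comparison (left) and the SRT2104 comparison (right); cells under 20 regions are not drawn. On the left the share in signal class 3 climbs from width class 2 to 24.3% in width class 5. On the right the widest regions of signal class 3 stand at 2.91%.

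CpG content was read from RefSeq promoter sequences of build GRCm38.p6, matched by symbol to the 6823 autosomal regions that name 1 gene with a single promoter entry. Each sequence runs from 250 bases before to 50 after the start site. Promoters with a ratio of observed to expected CG of at least 0.75 and a GC share of at least 0.55 were called high (3152 regions), those with a ratio under 0.48 low (1143), and the others intermediate (2528). Examples from the 3 classes, each with one of the smallest p-values of its class, are shown to let the density of CG, in capitals, be compared by eye. Mmp24 (chr2:155775092-155775391, + strand) holds 44 CG, Calr (chr8:84846882-84847181, - strand) 17, Ctsz (chr2:174438990-174439289, - strand) 12 and Krt77 (chr15:101869656-101869955, - strand) 3. The class medians were 29, 17 and 7 for high, intermediate and low.
Mmp24: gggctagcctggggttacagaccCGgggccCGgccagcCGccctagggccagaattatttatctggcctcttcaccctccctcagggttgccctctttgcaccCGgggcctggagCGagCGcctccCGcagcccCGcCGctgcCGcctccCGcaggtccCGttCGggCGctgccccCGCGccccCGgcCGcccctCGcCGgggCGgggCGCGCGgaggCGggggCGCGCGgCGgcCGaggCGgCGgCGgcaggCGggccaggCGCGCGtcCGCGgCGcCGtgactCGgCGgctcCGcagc
Calr: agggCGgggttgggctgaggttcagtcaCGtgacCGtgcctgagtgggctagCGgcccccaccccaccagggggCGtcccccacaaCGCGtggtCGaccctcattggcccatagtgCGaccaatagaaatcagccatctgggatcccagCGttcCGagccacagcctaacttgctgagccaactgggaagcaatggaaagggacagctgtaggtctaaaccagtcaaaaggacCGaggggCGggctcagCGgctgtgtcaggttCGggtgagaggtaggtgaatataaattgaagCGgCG
Ctsz: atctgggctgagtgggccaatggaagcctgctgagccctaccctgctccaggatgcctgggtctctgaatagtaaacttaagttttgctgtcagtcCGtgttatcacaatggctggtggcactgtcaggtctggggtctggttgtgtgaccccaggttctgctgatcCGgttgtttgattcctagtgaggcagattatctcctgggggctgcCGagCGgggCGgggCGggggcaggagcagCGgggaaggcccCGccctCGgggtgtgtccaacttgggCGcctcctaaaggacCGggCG
Krt77: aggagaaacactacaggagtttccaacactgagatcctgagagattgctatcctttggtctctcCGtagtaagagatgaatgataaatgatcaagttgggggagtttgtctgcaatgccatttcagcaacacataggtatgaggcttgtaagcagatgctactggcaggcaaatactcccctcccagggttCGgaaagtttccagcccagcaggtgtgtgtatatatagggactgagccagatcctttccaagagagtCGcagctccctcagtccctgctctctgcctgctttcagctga

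All 3 classes had medians of 0.02 to 0.03 in the comparison. The counts differed more. Of low CpG promoters 99 were higher at an unadjusted p under 0.05 (8.66%) and 50 lower (4.37%), while high CpG promoters had 164 (5.20%) and 75 (2.38%). Low CpG promoters are mostly weak, so the split was repeated within signal classes. In signal class 4, 17 of 85 low CpG promoters were higher (20.0%), beside 48 of 827 high CpG promoters (5.80%), and in signal class 5, 9 of 52 (17.3%) beside 51 of 886 (5.76%). At the weak end high CpG promoters had 24 of 243 lower (9.88%) and 4 higher, beside 8.52% lower in signal class 1 as a whole. Unlike the counts by signal and width, those by CpG class were not repeated with other scalings or with either knockout left out.

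Krt77, whose promoter has the fewest CG of those shown, encodes a keratin. Its region had 36.8 and 63.5 in the knockouts and 11.3, 14.1, 21.5 and 14.1 in the vehicle libraries. Both knockouts lay above all wild types, of which library 3 was the highest (log2 difference 1.64 ± 0.37; limma adjusted p = 0.16). Chromosomes did not stand apart, with median differences of 0.02 to 0.04 on all 19 autosomes, and regions that name 1 or 2 genes both had a median of 0.03, beside 0.05 in the 54 that name 3 or more.

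Gene lists by pathway and cell type were read against the shares of all autosomal regions, 6.16% higher and 2.98% lower. Thy1 is in none of the lists, so no listed region passed the adjusted threshold in limma. Genes of the excitatory synapse leaned higher, though not they alone. Of 27 regions of AMPA, NMDA and kainate receptor genes and their auxiliary subunits, 9 were higher at an unadjusted p under 0.05 (33.3%) and 0 lower, with a median log2 difference of 0.12. Cacng8, an AMPA receptor regulatory subunit, had 665 and 620 in the knockouts and 475, 512, 549 and 543 in the vehicle libraries. Grid1, a delta glutamate receptor, had 1264 and 1197 against 971, 1054, 1212 and 1035, with vehicle library 3 inside the knockout range. The list median was 0.15 and 0.12 in the 2 knockouts, 0.11 in vehicle library 3 and -0.13 in vehicle library 1. Summed signal over the 27 regions was 19149 and 18112 in the knockouts and 15574 to 18439 in the vehicle libraries, which overlap. Over 18 regions of GABA and glycine receptors, which are inhibitory, it was 12851 and 11937 against 10840 to 12308. Vehicle library 3 held the highest wild-type sum in both lists.

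Other lists of synaptic and channel genes had positive medians too, with potassium channels nearest to the background. Synaptic vesicle genes had 9 of 43 higher and 0 lower, calcium and sodium channels 8 of 33 and 1, potassium channels 6 of 60 (10.0%) and 1, and neuropeptides with their receptors 8 of 34 and 1. Cacna1d, an L-type calcium channel subunit, had 987 and 923 in the knockouts and 731, 697, 814 and 844 in the vehicle libraries (log2 difference 0.31 ± 0.07). Sstr3, the somatostatin receptor of neuronal cilia, had 437 and 411 against 259, 198, 377 and 235 (0.70 ± 0.22). In the SRT2104 libraries Sstr3 went the other way, with 234, 281, 217 and 205 in knockouts and 372, 371 and 280 in wild types. These 4 lists and that of AMPA, NMDA and kainate receptors kept a positive median under the scalings, pseudocounts, covariates and left-out libraries run. Vehicle library 3 had medians of 0.08 to 0.13 in all of these lists, close to the knockouts. Marker lists of neuron types did not follow them. Their medians were -0.14 for dentate granule neurons, -0.17 for thalamus and hypothalamus, -0.09 for striatum, -0.04 for GABAergic interneurons, -0.01 for cortical neurons, -0.0028 for CA1 and 0.07 for CA3 pyramidal neurons. Those of the first 3 stayed negative in the alternatives run.

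Cytoskeletal genes had 7 of 41 higher and 0 lower, with a median of 0.10. Tubb2a and Tubb2b, neuronal beta tubulins with closely similar coding sequence, had differences of 0.26 and 0.31, and Ank3, the ankyrin of the axon initial segment, 0.28. In the SRT2104 contrast the tubulin differences were -0.14 and -0.19. The test of the difference between contrasts missed the threshold, with limma adjusted p of 0.13 for Tubb2a and 0.20 for Tubb2b.

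Astrocyte markers were the cell type list with the most regions outside the vehicle range. Of 30 regions 14 were higher at an unadjusted p under 0.05 (46.7%), 0 were lower, and in 14 both knockouts lay above all vehicle libraries. Acsl6, an acyl-CoA synthetase, had 714 and 669 in the knockouts and 559, 630, 592 and 560 in the vehicle libraries. Gpr37l1, an astrocyte receptor, had 307 and 272 against 223, 223, 244 and 190. The list median was 0.18 and 0.15 in the 2 knockouts and 0.04 in vehicle library 3, so this lean did not follow library 3. Summed signal over the 30 regions was 13820 and 13192 in the knockouts and 12147 to 12655 in the vehicle libraries, with no overlap and no region at 0. In the SRT2104 contrast the median was -0.05.

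Endothelial genes also leaned higher. Of 22 endothelial regions 6 were higher and 0 lower, and in 10 both knockouts lay above the vehicle range. Ramp2, a subunit of the adrenomedullin receptor, had 572 and 532 against 485, 481, 477 and 472, and Mfsd2a, a lipid transporter of the blood-brain barrier, 522 and 534 against 439, 486, 450 and 453. The other vessel list, 12 regions of pericyte and smooth muscle genes, had 1 higher and 1 lower, a median of -0.09 (-0.21 to -0.0089 over the alternatives) and summed signals of 2146 and 2285 against 2071 to 2293, which overlap. Collagens, laminins and other matrix genes had 12 of 61 higher and 3 lower. Sparcl1 and Sparc, secreted matricellular proteins, had differences of 0.30 and 0.34. Glycolysis had 4 of 23 higher, 0 lower and 9 above the vehicle range, led by Tpi1, triosephosphate isomerase, with 706 and 690 against 611, 600, 653 and 610.

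**Figure D5:**
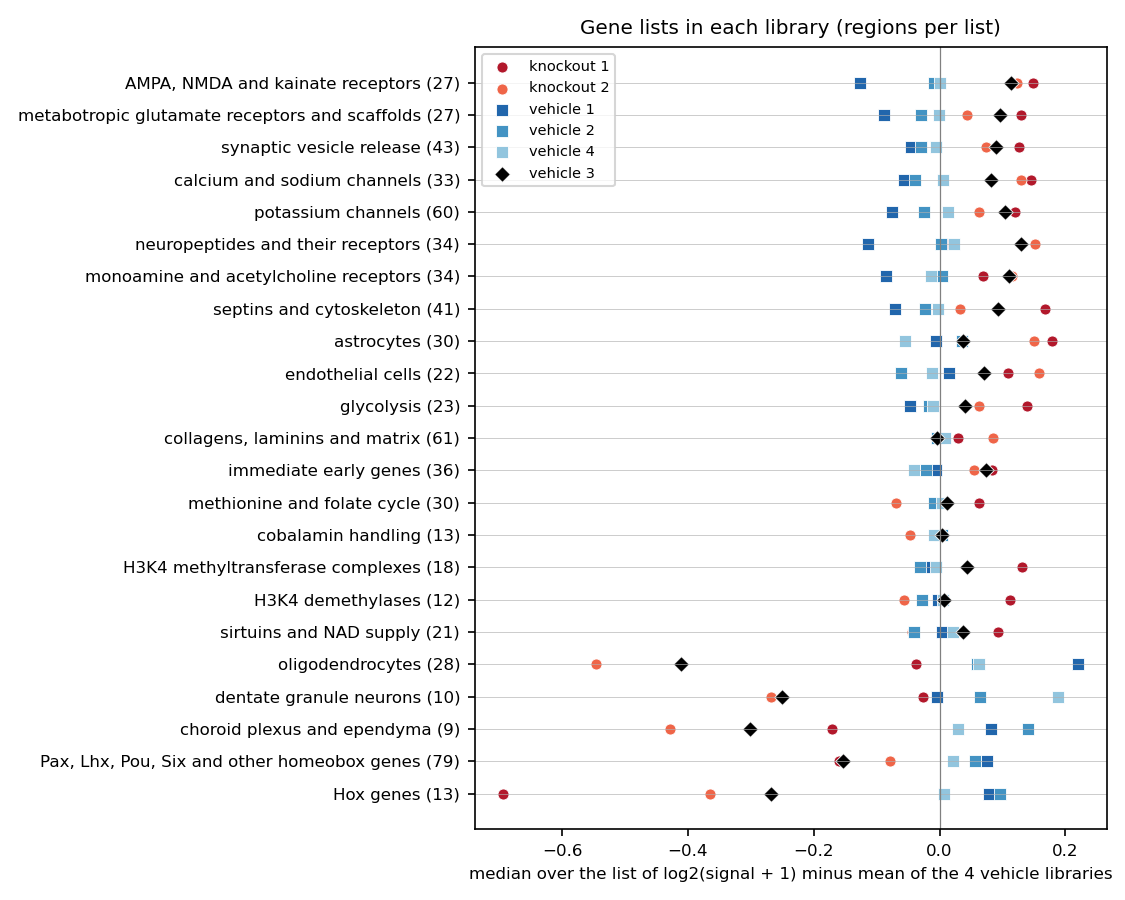
Median over each gene list of log2(signal + 1) minus the mean of the 4 vehicle libraries, in the 6 libraries of the comparison, with the number of regions in brackets. Vehicle library 3 lies near the knockouts for the synaptic and channel lists, near knockout 2 alone for oligodendrocytes (-0.41 beside -0.55), and between the knockouts and the other vehicle libraries for Hox genes at -0.27.

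Oligodendrocyte and choroid plexus markers leaned lower, unevenly between libraries. Of 28 oligodendrocyte regions 7 were lower at an unadjusted p under 0.05 and 1, Mbp, was higher. The list median was -0.04 in knockout 1, -0.55 in knockout 2 and -0.41 in vehicle library 3, with 0.22 in vehicle library 1. Ninj2, an adhesion protein, had 25.5 and 17.9 in the knockouts and 63.3, 40.0, 21.5 and 44.9 in the vehicle libraries, so library 3 lay among the knockouts. Of 9 choroid plexus and ependymal regions 3 were lower. Foxj1, the regulator of motile cilia, had 321 and 291 against 425, 443, 353 and 376. Summed over the 28 oligodendrocyte regions, the signal was 10030 and 7842 in the knockouts and 8343 to 10761 in the vehicle libraries, and none was at 0. Summed over the 9 choroid plexus and ependymal regions it was 1725 and 1633 against 1700 to 2253. Of the defining genes in these lists, Mobp, Opalin, Ttr, Folr1 and Kcnj13 had no autosomal region in the table. The part of cell makeup in the other differences was not tested.

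The Hox list had the lowest median of the gene lists, -0.41. Of 13 Hox regions 6 were lower at an unadjusted p under 0.05 (46.2%), 0 higher, and in 7 both knockouts lay below all vehicle libraries. Hoxa5 was weak throughout, with 9.45 and 7.16 in the knockouts and 20.8, 22.7, 18.0 and 17.6 in the vehicle libraries. Hoxa4 had 66.1 and 75.2 against 115, 97.3, 78.1 and 101. The list median was -0.69 and -0.36 in the knockouts and -0.27 in vehicle library 3, and the median difference in the SRT2104 contrast was 0.0045. Summed over the 13 Hox regions, the signal was 461 and 566 in the knockouts and 547 to 747 in the vehicle libraries, which overlap. These sums are low, as the median autosomal region alone has a mean signal of 537. Among 79 other homeobox regions, with a median of -0.12, 10 were lower and 1 higher. Tlx3 had 6.61 and 7.16 against 34.7, 21.6, 10.8 and 20.2, and Lhx4 131 and 158 against 232, 192, 161 and 210.

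Genes of the major histocompatibility complex and the interferon response had 7 of 36 regions lower and 1 higher, although the list median was -0.01. With Ciita came the class II gene H2-Ab1, with 83.1 and 60.0 in the knockouts and 132, 160, 94.2 and 172 in the vehicle libraries, and the class I gene H2-Q7, with 146 and 121 against 174, 265, 184 and 273. H2 genes share reads with near copies, so the H2-Q7 value is uncertain. Wnt ligands were split. Wnt7a had 693 and 727 against 495, 525, 635 and 553, above the wild types, while Wnt3 had 42.5 and 65.3 against 106, 110, 53.0 and 104, where library 3 lay between the knockouts.

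The pathway of the deleted enzyme itself showed little. Of 30 regions of methionine and folate cycle genes 2 were higher at an unadjusted p under 0.05, Ahcyl1 and Aldh1l1, and 1 was lower, Mtap, the salvage enzyme that returns methylthioadenosine to methionine. Mtap had 585 and 559 in the knockouts and 643, 626, 626 and 623 in the vehicle libraries, a small difference of -0.14 ± 0.05 with both knockouts below the wild types. Of 13 cobalamin genes, Cd320, the transcobalamin receptor, had 509 and 491 against 415, 445, 478 and 462, and Lrp2, megalin, which takes up the same carrier in kidney, 283 and 277 against 339, 350, 287 and 326. Among the writers of the mark, 1 of 18 was higher, Men1, the menin subunit of MLL complexes, with 712 and 683 against 624, 638, 643 and 617. None of the 12 demethylase regions and none of the 21 sirtuin and NAD regions reached an unadjusted p under 0.05 in limma. The medians of these 5 lists lay between 0.02 and 0.06 and turned negative without knockout 1, and the median over all autosomal regions was 0.03.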

How the data were processed

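H3K4me3 chromatin immunoprecipitation and sequencing was done on mouse hippocampus. The authors deposited a signal per region and library, which is a count of reads scaled by its library's own factor. Bowtie2, SAMtools, bedtools, MACS2, DESeq2 and the mm9 build are named, without roles, in the submitters' processing notes. How regions were called, and with which input, is not given in the sources used here. The 17212 lines of the deposited table reduce to 14006 regions. The deposited signal came out as whole reads for 100% of values, to within 0.001 reads, once each library's smallest step was divided out.

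The main test was limma 3.58.1 (R 4.3.3) with trend and robust options on log2(signal + 1), over all 13 libraries with 1 coefficient per group and Benjamini-Hochberg adjustment over all 14006 regions. Such fold changes understate the change of low regions. A filter at a value of 10 in at least 2 libraries removed 0 autosomal regions. edgeR 4.0.16 and DESeq2 1.42.0 were run on the recovered reads as alternatives, besides other scalings, pseudocounts, a sex covariate, a replicate block and each library left out. Reads are not independent molecules, so depth bounds counting error only. Plots and tables were made in Python 3.11.15, with matplotlib 3.10.9 and pandas 2.3.3.

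The members and gene lists were chosen with earlier results of these data known. Regions were named by rule: those past an adjusted p of 0.05, the 10 per direction with the smallest p among regions whose 2 knockout values lie outside the vehicle range (2 of these 20 are not reported here), the 5 per direction with the smallest p without vehicle library 3, up to 3 per gene list, up to 2 per promoter class, and Mtr. Prox1, Csf1r and C1qa were named under the list part of the rule. A gene with several regions was represented by the one with the most signal. Width classes and CpG classes within signal classes were added after the data had been seen.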

Additional observations from a re-analysis of the deposited data

Results flagged for a closer look

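In groups of 4 libraries, a library was marked when its gap to the nearest other was over Dixon's 95% critical share of the group's range, which chance passes in about 1 group of 20. Of 56 groups examined over 28 named regions (those given for Thy1, for non-overlap, without vehicle library 3, and Mtr), 10 were marked, 7 of them in the vehicle group. All 4 marks of vehicle library 3 fall in regions named for their small p without that library, so they cannot be read against that rate.

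Vehicle library 3 stood at 521 for Slc6a7 beside 211 to 239 in the other vehicle libraries, and at 442 for Mpped1 beside 255 to 275. It stood at 62.8 for 2900026A02Rik beside 182 to 194, and at 256 for Emilin2 beside 363 to 377. Choosing these regions by that fit also favours values of library 3 on the side of the untreated knockouts.

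Vehicle library 2 was low for Lipo1, at 68.1 beside 96.8 to 97.8, and high for Ciita, at 47.6 beside 29.5 to 31.7. Vehicle library 4 was high for Mmp24, at 536 beside 460 to 469. Among SRT2104 knockouts, replicate 2 was low for Calr, at 695 beside 730 to 737, and high for Mir124a-1 with Mir3078, at 643 beside 565 to 574. SRT2104 knockout replicate 1 was high for Mafa, at 306 beside 276 to 280. No explanation was tested.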

How the results depend on the processing

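The count of called autosomal regions in the untreated comparison was 1 in limma and stayed 1 with edgeR, DESeq2, other pseudocounts and no filter. It was 0 with TMM scaling, with cyclic loess scaling and with sex as a covariate, 34 when only the 2 groups were fitted, and 0 to 552 when 1 library was left out, the 552 without vehicle library 3. Without knockout 1, 5 were called, and without knockout 2 also 5. Same-numbered libraries had correlations of -0.33 to 0.22 in their deviations from the group means. Differently numbered libraries were not compared, so these values cannot show whether the replicate numbers pair the samples. With the replicate block 2 regions were called. For Thy1 the log2 difference was 0.69 to 0.96 over the alternatives and the limma adjusted p ranged from 2.2e-05 without vehicle library 3 to 0.58 with the sex covariate, missing 0.05 with both scalings, the sex covariate, and without knockout 1, vehicle 2 or vehicle 4. The cause was not tested.

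In the SRT2104 genotype contrast the count was 1, with 0 under TMM and under cyclic loess and 0 to 1 with 1 library left out. The difference between the 2 genotype contrasts had 0 calls in limma, edgeR and DESeq2, beside 548 and 522 regions higher and lower at an unadjusted p under 0.05, and 0 to 266 with 1 library left out, the 266 without vehicle library 3. The Mtr difference was -0.1962 without knockout 1 and turned to 0.0604 without knockout 2. Of 1162 alternative values for named regions, 1068 kept direction and called or uncalled status, 87 became calls and 6 lost the call, all 6 for Thy1. Apart from Thy1, keeping that status means staying uncalled. Most of these regions were named for a small p-value in the same libraries, which favours a stable direction, so the 1068 do not measure robustness.

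A pair of knockout libraries sets the precision here, and low regions such as Hoxa5 and Ciita rest on few reads per library.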
